A study of Arabidopsis thaliana with 6 samples.

Results

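The PHYTOCHROME INTERACTING FACTORs (PIFs) are basic helix-loop-helix (bHLH) transcription factors, and the 9 loci described here encode 7 of them (*PIF1*, *PIF3*, *PIF4*, *PIF5*, *PIF6*, *PIF7* and *PIF8*) together with 2 relatives, *PIL1* (*PIF3-LIKE1*) and *HFR1* (*LONG HYPOCOTYL IN FAR-RED*). They were taken by locus from the 32678 genes of each library, and all 9 were among the 20813 genes with enough counts to be tested. The libraries were made from poly-A RNA of *Arabidopsis thaliana* inflorescence apices that carried flowers up to stage 12, with 3 libraries of *bpcV* and 3 of wild type. *bpcV* is the quintuple mutant *bpc1-2 bpc2 bpc3 bpc4 bpc6*, which combines mutations in genes of the BASIC PENTACYSTEINE (BPC) family, transcription factors that bind GA-rich DNA. Wild type is the Col-0 accession, and both genotypes were grown without any treatment at 20 to 22 °C with 16 h of light and 8 h of darkness. The question put to these genes is whether the transcripts of this light-signalling family differed between *bpcV* and wild type inflorescences.

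PIFs accumulate in darkness and in shade and bind the G-box with the letters CACGTG and the PBE-box with the letters CACATG, in the promoters of growth, hormone and pigment genes. Light-activated phytochromes bind most PIFs and cause their phosphorylation and breakdown. HFR1 has a helix-loop-helix domain but does not bind these elements well itself, and it holds PIF4 and PIF5 in dimers that cannot bind DNA, so that activators and a brake sit in the same family. In the gynoecium, PIF genes have been studied beside *SPATULA* (*SPT*), a bHLH gene of the same subfamily.

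The libraries held 16196042 to 19951509 expected counts in *bpcV* and 17777219 to 21455150 in wild type, and the common biological coefficient of variation was 13%. Of the mutated genes, *BPC1* (log2 fold change -5.25, FDR 3.34e-05), *BPC2* (-4.43, FDR 1.17e-05), *BPC6* (-4.48, FDR 5.12e-07) and *BPC4* (-0.62, FDR 0.00236) were lower in *bpcV* by the quasi-likelihood test of edgeR, while *BPC3* was at 5.91, 6.20 and 7.30 TPM in *bpcV* and at 5.41, 5.81 and 3.71 TPM in wild type (FDR 0.292). Without *bpcV* library 3 or any of the wild type libraries, 3 of the 5 were called. A nuclear ribosomal RNA gene took the largest share of each library, 3.44%, 3.07% and 1.87% of counts in *bpcV* libraries 1 to 3 and 2.40%, 2.80% and 0.721% in wild type libraries 1 to 3.

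Transcripts of *HFR1*, *PIF4* and *PIF5* were down-regulated in *bpcV*, and none of the 9 genes was up-regulated, by edgeR's quasi-likelihood test, DESeq2, limma or the likelihood ratio test. *HFR1* was 3.23-fold lower, *PIF4* 2.25-fold lower and *PIF5* 1.81-fold lower in *bpcV* than in wild type. All 9 estimates were negative, as were 48.5% of those over all tested genes, with a median log2 fold change of -0.78 and a range from -1.69 (*HFR1*) to -0.06 (*PIF1*), whereas the median over all tested genes was 0.01. At a false discovery rate (FDR, Benjamini-Hochberg over all 20813 genes) of 0.01 the test called 3 of the 9 genes lower and 0 higher, where over all tested genes it called 3.89% (2.23% lower and 1.66% higher). At an unadjusted p below 0.05, 6 of the 9 genes were lower and 0 higher, against 28.3% of all genes in either direction and 13.8% lower. The counts scaled to library size (CPM) of all 3 *bpcV* libraries lay below those of all 3 wild type libraries for 7 of the 9 genes, compared with 17.6% of all tested genes. Of these 7, *PIF3* and *PIF7* overlapped between the genotypes in TPM, for which no share over all genes was computed. *PIF7* had 11 expected counts in both *bpcV* library 2 and wild type library 2. It reached a count of 10 in all 3 wild type libraries but in *bpcV* only in library 2, so the filter itself favoured a lower value in *bpcV*. A lower value in these bulk samples can come from fewer cells of a type or from less RNA per cell, which cannot be told apart. The study itself had pointed to *PIF4* and *PIF5* from these samples, so their calls are not independent evidence.

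**Figure D1:**
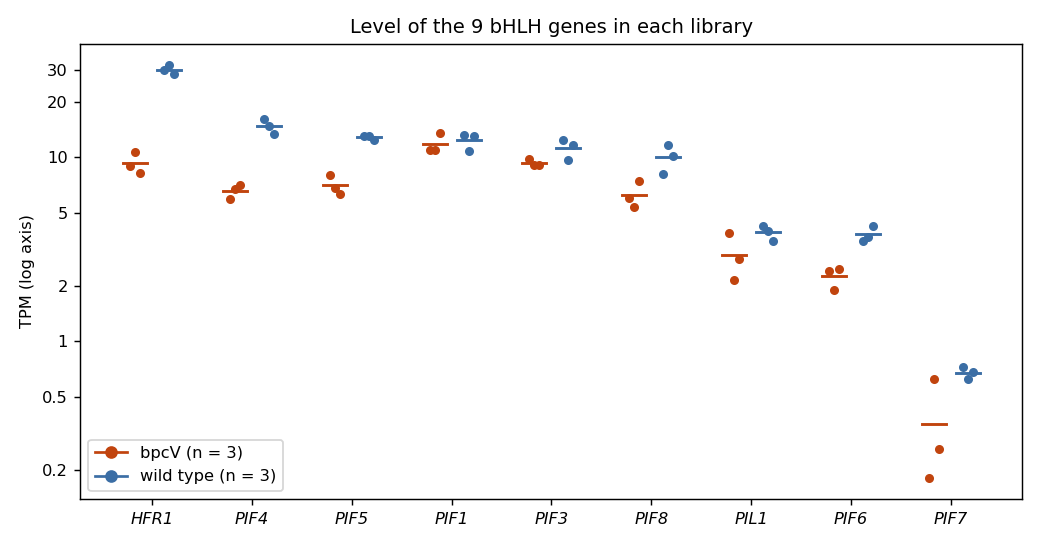
Level of each gene in TPM (scaled by gene length and library, log axis) in the 3 *bpcV* libraries (orange, left) and the 3 wild type libraries (blue, right). Points are libraries and short lines are means. *HFR1*, *PIF4*, *PIF5*, *PIF6* and *PIF8* show no overlap between genotypes, and *HFR1*, at 8.26 to 10.6 TPM in *bpcV* and 28.3 to 31.9 TPM in wild type, is the widest gap.

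*HFR1* (AT1G02340), the inhibitor of the family, lies on chromosome 1 from 465616 to 467880 on the minus strand of TAIR10.1. It had 9.02, 10.6 and 8.26 TPM in *bpcV*, against 29.7, 31.9 and 28.3 TPM in wild type. The expected counts behind these levels were 136, 172 and 151 in *bpcV* and 569, 515 and 465 in wild type. All 3 *bpcV* libraries were far below the lowest wild type library. Its mean was 9.30 ± 1.21 TPM in *bpcV* and 29.9 ± 1.84 TPM in wild type (SD, n = 3 each), and the log2 fold change was -1.69 ± 0.12 (SE), with a 95% interval of -1.97 to -1.42 and an FDR of 0.000258 by edgeR's quasi-likelihood test. Only 275 of the 20813 tested genes, or 1.32%, had an estimate as low or lower, *HFR1* included. The call held in all 18 alternative settings, with the FDR no higher than 0.0037. TAIR10 gives *HFR1* a single transcript, and no other annotated gene overlaps it.

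*PIF4* (AT2G43010), the factor that drives elongation growth in shade and in warmth, lies on chromosome 2 from 17886101 to 17889087 on the plus strand. It had 5.95, 6.76 and 7.08 TPM in *bpcV*, compared with 16.2, 14.8 and 13.4 TPM in wild type. Expected counts were 133, 162 and 192 in *bpcV* and 462, 354 and 327 in wild type. The genotypes did not overlap, and the highest *bpcV* library was well under the lowest wild type library. The mean was 6.60 ± 0.58 TPM in *bpcV* and 14.8 ± 1.41 TPM in wild type (SD, n = 3 each), with a log2 fold change of -1.17 ± 0.12 (SE), a 95% interval of -1.45 to -0.89 and an FDR of 0.00127 by edgeR. An estimate as low or lower was found for 570 tested genes (2.74%), *PIF4* included. The call held in 16 of 18 alternative settings, and the FDR was 0.0103 without wild type library 1 and 0.011 without wild type library 2.

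*PIF5* (AT3G59060, *PIL6* in RefSeq), a close relative of *PIF4* that acts with it in shade, lies on chromosome 3 from 21827905 to 21830837 on the minus strand. It had 8.04, 6.80 and 6.35 TPM in *bpcV* and 13.1, 13.0 and 12.4 TPM in wild type. Expected counts were 194, 176 and 186 in *bpcV*, against 403, 332 and 321 in wild type. Again no *bpcV* library reached the wild type range, and the wild type libraries were tightly grouped. The mean was 7.06 ± 0.88 TPM in *bpcV* and 12.9 ± 0.36 TPM in wild type (SD, n = 3 each), with a log2 fold change of -0.85 ± 0.11 (SE), a 95% interval of -1.11 to -0.60 and an FDR of 0.00322 by edgeR. The call was less stable than that of *HFR1*, since it held in 14 of 18 alternative settings. The FDR was 0.0204, 0.0212 and 0.0155 without wild type libraries 1, 2 and 3, and 0.016 without *bpcV* library 3.

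The promoters of the 3 down-regulated genes are shown because the factors at hand, PIFs and BPCs, read short DNA motifs. Each line holds the 250 bases before the annotated gene start in RefSeq's TAIR10.1 annotation, read 5′ to 3′ on the gene's strand, with matches to the G-box, the PBE-box or GAGAGA in capitals.
HFR1 chr1:467881-468130 (minus): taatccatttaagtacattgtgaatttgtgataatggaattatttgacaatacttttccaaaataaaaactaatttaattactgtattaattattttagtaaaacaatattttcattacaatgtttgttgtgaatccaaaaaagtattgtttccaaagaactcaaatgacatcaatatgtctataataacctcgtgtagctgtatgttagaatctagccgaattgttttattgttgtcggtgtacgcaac
PIF4 chr2:17885851-17886100 (plus): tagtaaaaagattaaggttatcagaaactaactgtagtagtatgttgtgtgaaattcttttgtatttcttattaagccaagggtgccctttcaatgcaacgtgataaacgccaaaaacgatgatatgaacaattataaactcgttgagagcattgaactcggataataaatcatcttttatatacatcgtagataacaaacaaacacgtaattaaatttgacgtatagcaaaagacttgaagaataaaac
PIF5 chr3:21830838-21831087 (minus): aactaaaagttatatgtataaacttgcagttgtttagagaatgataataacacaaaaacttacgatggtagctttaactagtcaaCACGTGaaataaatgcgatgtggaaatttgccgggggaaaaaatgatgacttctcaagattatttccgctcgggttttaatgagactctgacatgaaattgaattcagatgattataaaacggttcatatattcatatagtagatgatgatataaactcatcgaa
The G-box, the PBE-box (which reads as CATGTG when it lies on the other strand) and the GA motif (which then reads as TCTCTC) were searched on both strands as exact letters, and overlapping matches were each counted. In this window *HFR1* and *PIF4* held none of the 3, and *PIF5* held a G-box that starts 165 bases before the gene.

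In the window from 250 bases before to 50 bases after the start, a G-box was found in 1 of the 9 genes (*PIF5*) and in 7.68% of 27443 Arabidopsis promoters, a PBE-box in 1 of 9 (*PIF7*) and 12.9%, and GAGAGA in 2 of 9 (*PIF3* and *PIF7*) and 29.2%. From 1000 bases before to 100 bases after the start, the G-box was found in 3 of 9 genes (*PIF5*, *PIF6* and *HFR1*) and 16.6% of promoters, the PBE-box in 3 of 9 (*PIF4*, *PIF7* and *HFR1*) and 39.8%, and GAGAGA in 6 of 9 and 67.0%. The GAGAGA match of *PIF1* lies 76 bases after its start, in the added downstream bases. *PIF4*, *PIF5* and *PIF8* were the genes with no GAGAGA in the longer window. A match is only a run of letters, and its absence says nothing about binding. The study lists *PIF5* among its putative direct BPC targets, from a published binding peak of BPC1 or BPC6 in its promoter. The promoter used there reached further past the start than the windows used here. The C-box, which the study names as the BPC binding motif, was not searched. The 30-base sites of the 3 down-regulated genes in the longer window, and the longest GA-rich run of the family, in *PIF6*, were as follows, with the motif in capitals.
PIF5 G-box, chr3:21830985-21831014 (minus): ttaactagtcaaCACGTGaaataaatgcga
PIF4 PBE-box, chr2:17885582-17885611 (plus): aataataatcttCATGTGgaatttatagaa
HFR1 PBE-box, chr1:468276-468305 (minus): tatctctatgttCATGTGtcaaagtggtag
HFR1 GAGAGA, chr1:468342-468371 (minus): actattaaactgTCTCTCaaatctcaatat
PIF6 GAGAGA, chr3:22991157-22991186 (minus): tttttggcccgtTCTCTCtctctctcctcc
The *PIF4* PBE-box starts 507 bases before the gene, the *HFR1* PBE-box 413 bases and the *HFR1* GAGAGA match 479 bases. The *HFR1* G-box starts 1000 bases before the gene, on the first base of the window, and is not printed because the window cuts its flank. *PIF6* held 5 overlapping matches within its run, the first at 465 bases, and 3 G-boxes, at 658, 647 and 486 bases before the gene.

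**Figure D2:**
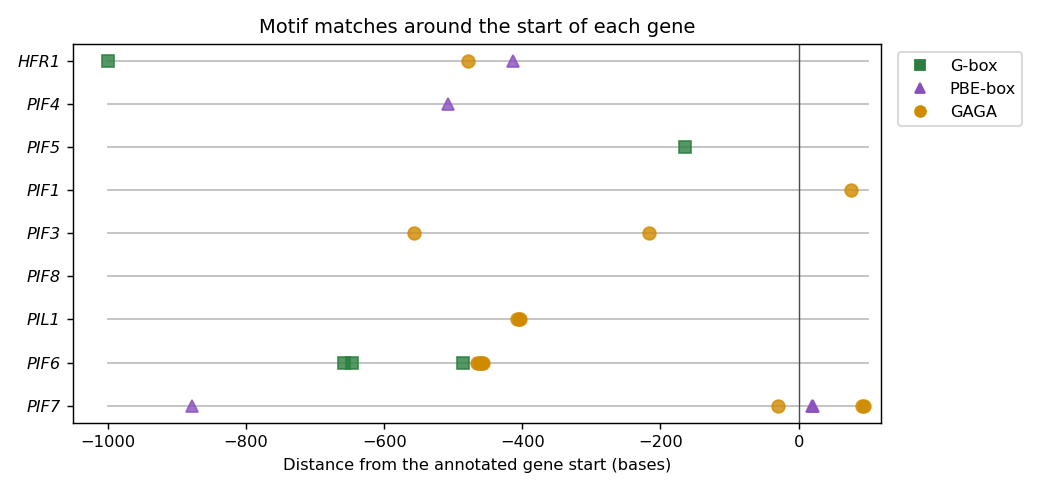
Position of each motif match, in bases from the annotated gene start (0), from 1000 bases before to 100 bases after it, for the 9 genes. Green squares are G-boxes, purple triangles PBE-boxes and yellow circles GAGAGA. The *PIF5* G-box at 165 bases before the start is the nearest match of any of the 3 down-regulated genes.

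*PIF6* and *PIF8* were lower in every *bpcV* library than in any wild type library but missed the threshold. *PIF6* (AT3G62090, *PIL2* in RefSeq), which acts in seed dormancy, had 2.41, 1.89 and 2.46 TPM in *bpcV* and 3.51, 3.69 and 4.22 TPM in wild type. Its log2 fold change was -0.78 ± 0.17 (SE), with a 95% interval of -1.18 to -0.39 and an FDR of 0.0239 by edgeR, and it passed only with the likelihood ratio test of edgeR (FDR 0.000903) among tests at the threshold of 0.01. *PIF8* (AT4G00050, *UNE10* in RefSeq), which restrains phytochrome A signalling, had 5.99, 5.34 and 7.44 TPM in *bpcV*, against 8.14, 11.7 and 10.1 TPM in wild type. The gap between the genotypes was narrow, from 7.44 to 8.14 TPM. The log2 fold change was -0.67 ± 0.19 (SE), with a 95% interval of -1.10 to -0.25 and an FDR of 0.0521, and it too passed with the likelihood ratio test (FDR 0.00994).

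*PIF3* (AT1G09530), the founding PIF and a repressor of seedling greening in the dark, had 9.80, 9.06 and 9.07 TPM in *bpcV* and 12.4, 9.63 and 11.7 TPM in wild type. The TPM ranges overlapped slightly, through *bpcV* library 1 and wild type library 2. Its log2 fold change was -0.28 ± 0.11 (SE), with a 95% interval of -0.54 to -0.03 and an FDR of 0.142 by edgeR. *PIF1* (AT2G20180, *PIL5* in RefSeq), the repressor of seed germination in the dark, had 11.0, 10.9 and 13.6 TPM in *bpcV* and 13.2, 10.8 and 13.1 TPM in wild type. Here the genotypes covered the same range, and the highest library of all was a *bpcV* library. The log2 fold change of *PIF1* was -0.06 ± 0.13 (SE), with a 95% interval of -0.35 to 0.23 and an FDR of 0.806, so an increase of up to 0.23 and a decrease of up to 0.35 on the log2 scale are both within its interval. It turned to 0.003 when *bpcV* library 2 was left out and was -0.18 without *bpcV* library 3.

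*PIL1* (AT2G46970), a gene that shade induces within minutes in seedlings, had 3.88, 2.15 and 2.81 TPM in *bpcV*, compared with 4.24, 3.96 and 3.51 TPM in wild type. *bpcV* library 1 fell among the wild type libraries, while the other two were below them. The log2 fold change was -0.42 ± 0.22 (SE), with a 95% interval of -0.93 to 0.10 and an FDR of 0.27 by edgeR. It was -0.65 (FDR 0.0649) without *bpcV* library 1 and -0.23 (FDR 0.466) without *bpcV* library 2. *PIF7* (AT5G61270), a main driver of the shade response in seedlings, was barely detected. It had 3, 11 and 5 expected counts in *bpcV* and 15, 11 and 12 in wild type, or 0.18, 0.62 and 0.26 TPM and 0.72, 0.62 and 0.68 TPM. Its log2 fold change of -0.92 ± 0.46 (SE) had a 95% interval of -1.99 to 0.14 and an FDR of 0.239 by edgeR, so no difference was detectable at this depth. Without *bpcV* library 2 the estimate was -1.58 (FDR 0.0687).

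**Figure D3:**
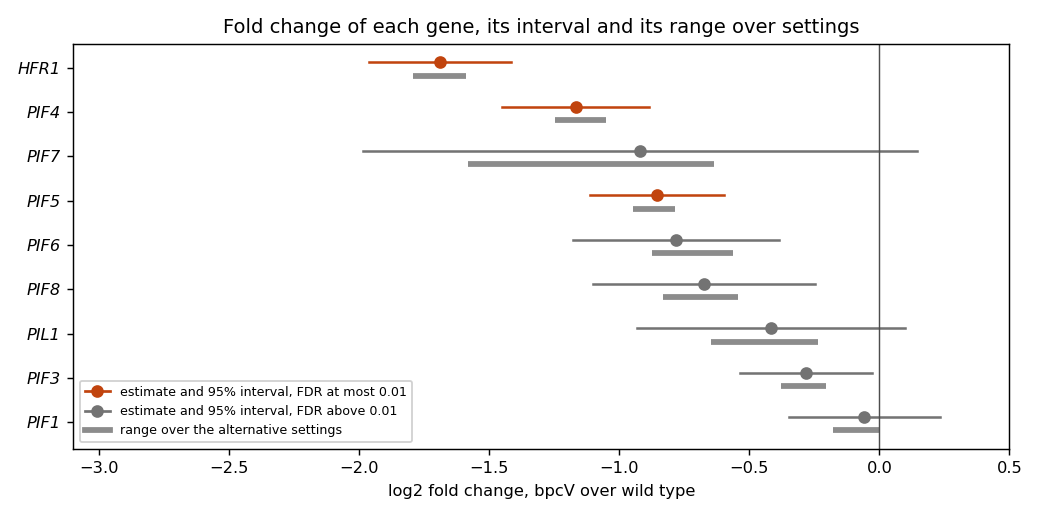
Log2 fold change of *bpcV* over wild type for the 9 genes (points), its 95% interval (thin lines) and the range of the estimate over the alternative settings (thick grey bars). Orange marks an FDR of at most 0.01 by edgeR. The intervals of 6 genes lie wholly below 0 before adjustment, and those of *PIF7*, *PIL1* and *PIF1* include 0.

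The ranking of the genes on the per-length TPM scale differed between the genotypes. In *bpcV* the order of mean levels was *PIF1* (11.8 TPM), *PIF3* (9.31 TPM), *HFR1* (9.30 TPM), *PIF5* (7.06 TPM), *PIF4* (6.60 TPM), *PIF8* (6.26 TPM), *PIL1* (2.95 TPM), *PIF6* (2.25 TPM) and *PIF7* (0.353 TPM). In that genotype the library ranges of *PIF3* and *HFR1*, of *PIF5*, *PIF4* and *PIF8*, and of *PIL1* and *PIF6* overlapped. In wild type the order was *HFR1* (29.9 TPM), *PIF4* (14.8 TPM), *PIF5* (12.9 TPM), *PIF1* (12.4 TPM), *PIF3* (11.2 TPM), *PIF8* (8.14 to 11.7 TPM in its libraries), *PIL1* (3.90 TPM), *PIF6* (3.81 TPM) and *PIF7* (0.673 TPM). There, neighbours overlapped from *PIF5* down to *PIF8* and between *PIL1* and *PIF6*. *HFR1*, first in wild type by a wide margin, was level with *PIF3* in *bpcV*, and *PIF4*, above *PIF1* and *PIF3* in wild type, was below both in *bpcV*.

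The transcripts of all 9 genes added up to 56.3, 54.2 and 57.3 TPM in *bpcV* and 101, 100 and 97.3 TPM in wild type. The 7 PIF genes without *PIL1* and *HFR1* summed to 43.4, 41.4 and 46.2 TPM in *bpcV*, against 67.2, 64.3 and 65.6 TPM in wild type. Within the summed TPM of the 9 genes, *HFR1* made up 16.7% ± 2.67 in *bpcV* and 30.1% ± 1.55 in wild type (SD, n = 3 each). *PIF1* made up 21.1% ± 2.23 in *bpcV* and 12.4% ± 1.42 in wild type, and *PIF3* made up 16.6% ± 0.80 in *bpcV* and 11.3% ± 1.44 in wild type. The share of *PIF4* was 11.8% ± 1.07 in *bpcV* and 14.8% ± 1.14 in wild type, while that of *PIF5* was 12.6% ± 1.6 in *bpcV* and 12.9% ± 0.12 in wild type. These shares are descriptions of one pool and were not tested.

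**Figure D4:**
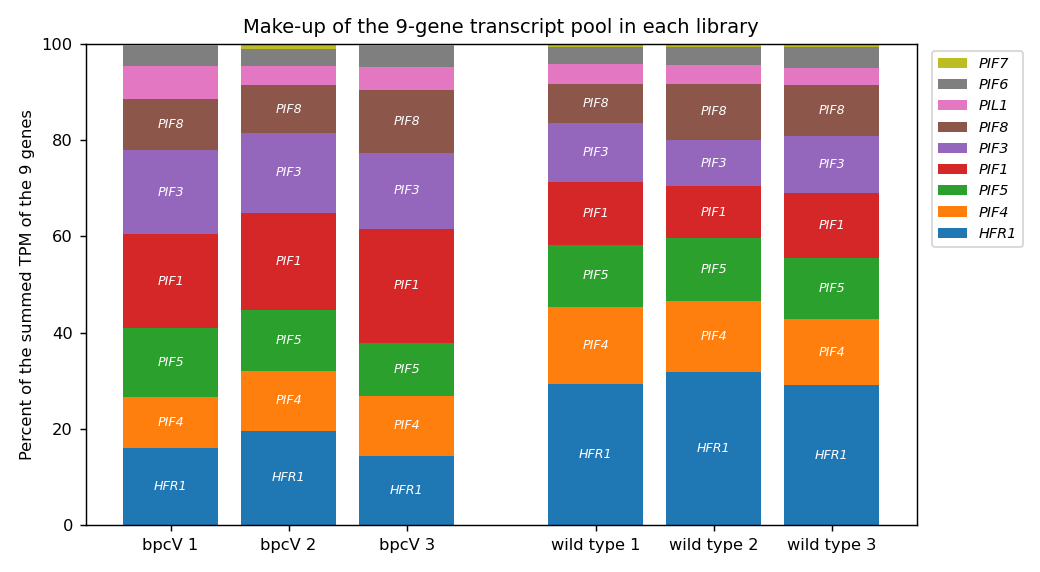
Share of each gene, in percent, of the summed TPM of the 9 genes, one stacked bar per library, with *bpcV* libraries at the left and wild type libraries at the right. *HFR1* spans 14.4% to 19.6% of the bar in *bpcV* and 29.0% to 31.9% in wild type, and *PIF1* 19.6% to 23.7% in *bpcV* and 10.8% to 13.4% in wild type.

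Ratios of TPM values compare the transcript of the inhibitor with those of the PIF genes. They are ratios of RNA, and protein levels were not measured here. *HFR1* relative to the sum of the 7 PIF genes was 0.208, 0.257 and 0.179 in *bpcV* and 0.441, 0.496 and 0.431 in wild type, with no overlap. *HFR1* relative to *PIF4* was 1.52, 1.57 and 1.17 in *bpcV* and 1.83, 2.16 and 2.11 in wild type. *HFR1* was thus above *PIF4* in every library of both genotypes. *PIF4* relative to *PIF1* was 0.540, 0.619 and 0.521 in *bpcV*, against 1.23, 1.36 and 1.02 in wild type, so that *PIF4* was below *PIF1* in all *bpcV* libraries and above it in all wild type libraries. *PIF4* relative to *PIF5* was 0.740, 0.994 and 1.11 in *bpcV* and 1.24, 1.13 and 1.08 in wild type, and the genotypes overlapped. No test was run on these ratios, which share their terms with the fold changes above.

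The mean transcript length that RSEM assigns to a gene changes when the mix of its isoforms changes. *PIF8*, *PIL1* and *HFR1* have 1 annotated transcript each, so their length could not differ. The share of all genes whose lengths separate the genotypes was not computed, so no separation of lengths is read as a result. For *PIF5* the values were as follows. Its length was 1875, 1877 and 1875 bases in *bpcV* and 1872, 1846 and 1837 bases in wild type, over 4 annotated transcripts. Wild type library 1 lay close to the *bpcV* libraries, so the gap was small. *PIF4*, with 2 transcripts, stayed at 1752 to 1753 bases in all 6 libraries. *PIF6* was the only gene of the 9 with counts that were not whole, in 4 of 6 libraries, which marks reads shared with other genes. *PIF1*, *PIF6* and *PIF7* overlap annotated genes on the opposite strand, and since the strandedness of the libraries is not given in the sources used here, reads from those partners cannot be told apart from theirs.

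The genes around the 3 down-regulated loci were also examined, with 3 annotated genes on each side. Of the 6 neighbours of *PIF4*, 3 could be tested and lay between -0.19 and 0.14 on the log2 scale. Of those of *PIF5*, 3 could be tested and lay between -0.56 and -0.33, and of those of *HFR1*, 2 could be tested and lay between -0.22 and -0.10. None of these 8 neighbours passed an FDR of 0.01 by edgeR, the likelihood ratio test or limma, and 2 of them, both beside *PIF5*, were lower at an unadjusted p below 0.05. Among untested neighbours of *HFR1*, AT1G02360 had 2, 1 and 1 expected counts in *bpcV* and 10, 8 and 7 in wild type. AT1G02350 had 3, 1 and 7 in *bpcV* and 14, 9 and 5 in wild type, and AT1G02320 had 0 in every library. The gene next to *PIF4* at 2416 bases, the polyamine oxidase gene *PAO2*, had 0.23, 2.90 and 0.92 expected counts in *bpcV* and 658, 656 and 1.56 in wild type. *PAO2* was therefore split within wild type and did not pass the filter on low counts (DESeq2, run without that filter, called it), whereas *PIF4* beside it was even across the wild type libraries.

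The 5 tested genes whose profile over the 6 libraries was nearest to that of *PIF4*, by the root mean square difference of mean-centred log2 CPM, were *YAB5* (0.0655), AT4G33800 (0.0731), *HAT3* (0.08), *RPS2* (0.082) and AT5G16720 (0.0833). *YAB5* encodes a YABBY factor of lateral organs and *HAT3* a class II HD-Zip factor, and their log2 fold changes were -1.24 (FDR 0.00513) and -1.08 (FDR 0.00128) by edgeR. For *HFR1* they were AT1G05950 (0.065), *CYP81D8* (0.0748), *PAR2* (0.12), *ALY2* (0.13) and AT2G05914 (0.131). Among the 9 genes themselves, the nearest pairs were *PIF1* and *PIF3* (0.164), *PIF6* and *PIF8* (0.175), *PIF5* and *PIF6* (0.186) and *PIF4* and *PIF5* (0.238), and the farthest pair was *PIF1* and *HFR1* (0.845). With 6 libraries in 2 genotypes, this likeness is mostly a likeness of fold change.

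Genes that work with the PIFs were read from 10 lists of 75 genes in all, of which 67 could be tested. By edgeR's test 6 of the 67 were lower and 1 was higher, where 2.23% of all tested genes were lower and 1.66% higher, and their median log2 fold change was -0.14, beside -0.78 for the 9 genes and 0.01 for all tested genes. The list of helix-loop-helix proteins of the PIF network, most of which form dimers without binding DNA themselves as HFR1 does, held 3 of the 6. Of its 11 genes 9 were tested, 3 were lower and 0 higher, all 9 estimates were negative and the median was -0.58. *PAR2*, an inhibitor of PIF4 that shade induces, had 17.6, 16.2 and 13.6 TPM in *bpcV* and 54.9, 52.1 and 51.7 TPM in wild type, a log2 fold change of -1.73 (FDR 0.000281). *PRE2*, which binds and removes such inhibitors, had 11.4, 9.78 and 12.7 TPM in *bpcV* and 35.5, 42.7 and 37.7 TPM in wild type (-1.75, FDR 0.000599). Both fold changes were close to that of *HFR1*, and neither gene overlapped between the genotypes. *KDR*, whose product binds HFR1, had a log2 fold change of -0.81 (FDR 0.00703), but its FDR was 0.0141 to 0.0314 when any single library other than *bpcV* library 1 was left out. *PRE1* was at -1.05 (FDR 0.0137) and *PAR1* at -0.58 (FDR 0.0849).

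**Figure D5:**
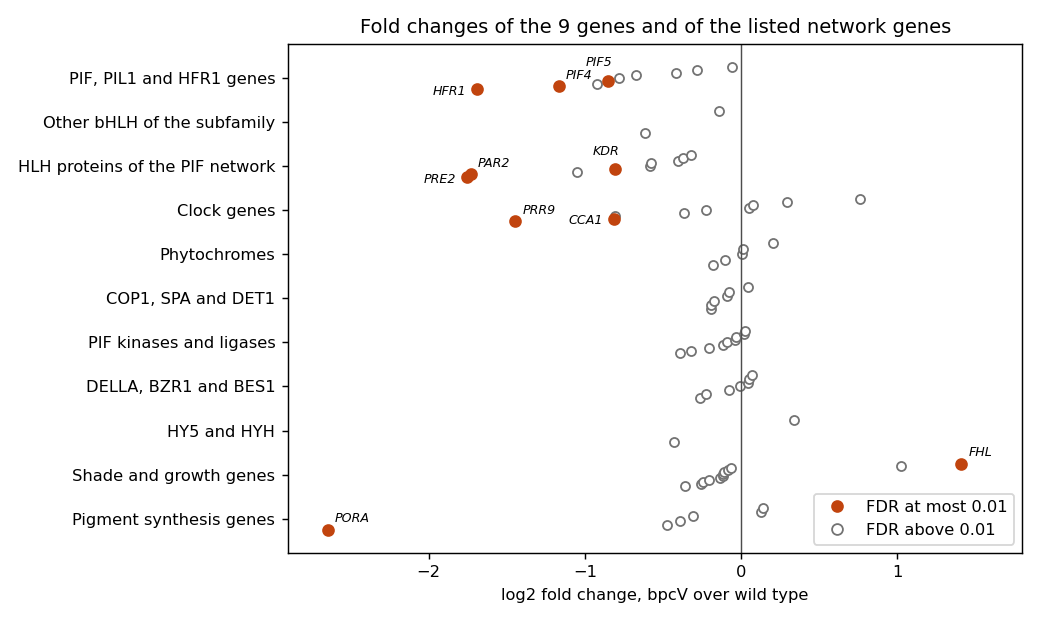
Log2 fold change of *bpcV* over wild type for the 9 genes (top row) and for each tested gene of the 10 network lists, 1 point per gene. Filled orange points have an FDR of at most 0.01 by edgeR and carry their names. Most points of the phytochrome, COP1/SPA, kinase and DELLA rows lie close to 0, and *HFR1*, *PAR2* and *PRE2* lie near -1.7.

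Of 9 clock genes that act on *PIF4* and *PIF5* transcription, 2 were lower and 0 higher, where 2.23% of all tested genes were lower and 1.66% higher. *CCA1*, a morning factor, had a log2 fold change of -0.81 (FDR 0.00301) and *PRR9*, a daytime repressor, -1.44 (FDR 0.00887). *PRR7* was at -0.80 (FDR 0.0103) and *ELF4*, part of the evening complex that represses *PIF4* and *PIF5* at night, at 0.76 (FDR 0.0103). The rest of the list was not called either, with *PRR5* at -0.36, *LHY* at -0.23, *ELF3* at 0.05, *TOC1* at 0.07 and *LUX* at 0.29. The FDR of *CCA1* was 0.0178, 0.0157 and 0.0159 without wild type libraries 1, 2 and 3, and that of *PRR9* was 0.0131 to 0.0438 when any single library other than *bpcV* library 1 was left out. *PIF4* and *PIF5* transcripts follow the time of day, and the hour of collection is not given in the sources used here, so a difference in hour between the genotypes was not tested.

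None of the 5 phytochrome genes, the 6 *COP1*, *SPA* and *DET1* genes, the 9 PIF kinase and ubiquitin ligase genes, the 7 DELLA and brassinosteroid factor genes, *HY5* and *HYH* passed the test. At an unadjusted p below 0.05 by edgeR, 4 of these 29 genes were lower (*EBF2*, *EBF1*, *BES1* and *HYH*) and 1 was higher (*PHYE*), beside 13.8% lower over all tested genes, and DESeq2, limma and the likelihood ratio test called 0. *HY5* depended on a single library, with 12.6, 23.4 and 24.5 TPM in *bpcV* and 16.2, 16.5 and 15.5 TPM in wild type, and its log2 fold change of 0.34 (FDR 0.385) was 0.58 (FDR 0.00833 by edgeR) without *bpcV* library 1. *PHYB*, the main photoreceptor that PIFs bind, was at -0.18 (95% interval -0.39 to 0.03) and *COP1*, which targets HFR1 for breakdown, at -0.09 (-0.26 to 0.08), so a change of the size of that of *HFR1* lies outside both intervals. *SPT*, the subfamily member of the carpel margin, had 10.2, 8.57 and 8.27 TPM in *bpcV*, against 13.0, 13.3 and 14.9 TPM in wild type (log2 fold change -0.61, FDR 0.0128), and so missed the threshold. The study reports *SPT* as down-regulated in *bpcV* from these same samples, and also from RT-PCR and in situ hybridization. Of the 14 genes that PIFs or shade are known to act on, 12 were tested, 0 were lower and 1, *FHL*, was higher (1.41, FDR 0.0021). The FDR of *FHL* rose to 0.0108, 0.0142 and 0.014 without wild type libraries 1, 2 and 3 and to 0.0113 without *bpcV* library 3. *XTH15*, a wall enzyme gene, was at 1.02 (FDR 0.0264), and the estimates of the other 10 lay between -0.36 and -0.07. Some of their 95% intervals were wide, as for *IAA19* (-0.945 to 0.812) and *SAUR20* (-1.09 to 0.36), so a decrease of the size of that of *PIF5* lies inside both. *IAA19* had 17.1, 64.0 and 53.1 TPM in *bpcV*. Of 6 pigment genes, *PORA*, which makes a light-dependent enzyme of chlorophyll synthesis, was lower, with 4.55, 4.53 and 4.66 TPM in *bpcV* and 27.0, 35.3 and 23.3 TPM in wild type (-2.64, FDR 0.000212), and *CHLH* was at -0.48 (FDR 0.0307).

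Markers of the cell types in the sample were read beside these values. The 7 flower and meristem markers had a median log2 fold change of 0.11 with 0 called by edgeR's quasi-likelihood test. At an unadjusted p below 0.05 by that test, 3 were higher. DESeq2 called 1, *AP1*, and the likelihood ratio test called 1 higher. The summed level of the 7 was 830 to 1047 TPM in *bpcV* and 832 to 841 TPM in wild type, so the defining genes of the tissue were present in both genotypes. Of the 5 green tissue markers 3 were lower in *bpcV*, namely *LHCB1.1* (-1.71, FDR 0.000311), *LHCB1.2* (-1.49, FDR 0.000472) and *LHCB2.1* (-0.74, FDR 0.0042) by edgeR, and their summed level was 8657 to 11553 TPM in *bpcV* and 11039 to 12121 TPM in wild type. *LHCB1.1* and *LHCB1.2* are near-identical copies, so their separate values are uncertain, and *RBCS1A* and *RBCS3B* were at -0.03 and 0.08. When any single library other than *bpcV* library 1 was left out, 2 of the 5 were lower. Of 7 tapetum markers 5 were tested, with 0 called by edgeR's quasi-likelihood test and a median of -0.66. By that test 2, *AMS* and *A6*, were lower at an unadjusted p below 0.05, and DESeq2 called both. The likelihood ratio test also called 2 lower. The summed level of the 7 was 71.1 to 109 TPM in *bpcV* and 113 to 202 TPM in wild type. Of the untested markers, *DYT1* was at or near 0 in all 6 libraries. *TDF1* had 0.42, 0 and 0.21 TPM in *bpcV* and 0.74, 1.19 and 1.25 TPM in wild type. Of 3 secondary wall markers *CESA7* was lower (-0.86, FDR 0.000788) and *CESA4* and *CESA8* were at 0.01 and 0.03. The part of green tissue or tapetum in the values of *HFR1*, *PIF4* and *PIF5* was not tested.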

How the data were processed

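Poly-A RNA of 3 *bpcV* and 3 wild type inflorescence samples was sequenced in pairs of reads. With bowtie2 the authors mapped the reads to TAIR10 transcripts, and for each library they deposited expected counts from RSEM for 32678 genes, which are not normalized. The same deposited files hold TPM, which the authors' RSEM run scaled by effective length and library, and the length of each gene as a mean over its isoforms. A deposited table of the whole series holds values per library and the authors' log2 fold changes, p-values and FDR values, and was not used here. Versions of the authors' tools, strandedness and the hour of collection are not given in the sources used here.

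Genes with few reads were dropped by filterByExpr (a count of 10 and a total of 15 as minima) after the expected counts had been rounded. The genotypes were then compared by edgeR 4.0.16 (R 4.3.3) with TMM factors and its quasi-likelihood F-test, the test and the FDR threshold of 0.01 in the study's methods. Genotype was the only term, and the filter left 20813 genes. The study reported many more differentially expressed genes with the same named test and threshold than the 809 called here, and the reason was not tested. Standard errors and 95% intervals come from that fit. Precision is limited by 3 libraries per genotype and, for *PIF7*, by counts under 16 per library. An exact permutation test of 3 libraries against 3 cannot go below p = 0.1, so none was used. The study's methods call the 3 samples of each genotype biological replicates, without saying how many plants each holds.

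Levels are compared between genes in TPM, and log2 CPM for likeness used a prior count of 2. Positions and promoters come from the RefSeq annotation of TAIR10.1, in which all 9 loci were found.

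Alternatives were DESeq2 1.42.0, RLE and upper-quartile factors, no filter, at least 10 counts in every library, the likelihood ratio test and the newer quasi-likelihood fit of edgeR, limma 3.58.1 on log2-transformed TPM (pseudocount 1 or 0.1, mean TPM at least 1), counts that were not rounded, the replicate number as a block, each library left out, an FDR of 0.05, and a promoter from 1000 bases before to 100 bases after the start in place of 250 before to 50 after. Leaving out the ribosomal RNA gene was added after seeing the data. Where a library was left out, the other libraries of both genotypes set the spread.

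The members, lists and tests were chosen with earlier results of these data known. The genes named are the 9 loci, every gene of a list past the threshold with up to 3 others of the lowest FDR, the neighbours of called loci, and the 5 nearest profiles to *PIF4* and *HFR1*. *PHYB*, *COP1*, *PAR1*, *LHY*, *ELF3*, *TOC1* and *LUX* and markers without a call were named after their values were seen. Python 3.11.15, pandas 2.3.3, numpy 2.4.6 and matplotlib 3.10.9 were used for the rest.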

Additional observations from a re-analysis of the deposited data

How the results depend on the processing

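*HFR1* kept its call in all 18 alternative settings. Of the 9 genes, 3 were called, and 3 were also called with DESeq2, both other scalings, both filters, unrounded counts, the newer quasi-likelihood fit, limma with either pseudocount and without the ribosomal RNA gene. The likelihood ratio test called 5 and an FDR of 0.05 called 4. With a library left out, 1 to 3 were called, the fewest (1, *HFR1*) without wild type library 1 or 2. Over all genes the count was 809, and 1782 with DESeq2, 2233 with the likelihood ratio test, 532 with limma on log2(TPM + 0.1), 2506 at an FDR of 0.05 and 167 to 1249 with a library left out. The 7 network genes called became 13 with DESeq2, 13 with the likelihood ratio test, 13 at an FDR of 0.05 and 3 to 12 with a library left out. The log2 fold change of *PIF1* ranged from -0.178 to 0.003 with a library left out, and it was above 0 without *bpcV* library 2. The cause of these changes was not tested. A promoter window longer on both sides, from 1000 bases before to 100 bases after the start, held a G-box in 3 genes in place of 1, a PBE-box in 3 in place of 1 and GAGAGA in 6 in place of 2, of which *PIF1* was gained through the bases after the start.

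Deviations from the genotype means correlated at -0.019, -0.013 and 0.177 between *bpcV* and wild type libraries of the same number, 1, 2 and 3. Between libraries of unlike number they correlated at -0.139 to 0.133. With 3 libraries per genotype these values cannot settle whether the numbers pair the libraries. With the replicate number as a block, 408 genes were called, 382 of them among the 809, and 3 of the 9 genes. Under the block 5 network genes were called and no clock gene (*CCA1* FDR 0.0136, *PRR9* FDR 0.0164, edgeR). Of all calls 57.4% were lower in *bpcV*, against 66.2% with the block and 53.0% to 77.2% with a library left out. *PIF7*, with 3 to 15 counts, is limited by depth and was filtered out with limma or a minimum of 10 counts in every library.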
